A study of Mus musculus with 8 samples.

Results

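The BCL2 family of apoptosis regulators was followed in mouse embryonic stem cells treated to delete Htatsf1, a gene for an RNA-binding protein that associates with the U2 snRNP of the spliceosome. Its 10 members here were taken by gene symbol from the 20388 genes of the deposited tables, and each had 1 entry in every table. The 3 anti-apoptotic members were Bcl2, Bcl2l1 (BCL-XL) and Mcl1. The 3 effectors were Bax, Bak1 and Bok, and the 4 BH3-only members were Bcl2l11 (BIM), Bbc3 (PUMA), Pmaip1 (NOXA) and Bid. Polyadenylated RNA was sequenced from 4 groups of 2 libraries: tamoxifen for 72 h, ethanol for 72 h, tamoxifen for 48 h and ethanol for 48 h. All 8 libraries, those of the ethanol controls included, came from stem cells derived from tatsf1 flox/flox CreERT2 mice, in which tamoxifen activates the CreERT2 recombinase and so deletes the gene. All were grown on mouse embryonic fibroblasts (MEFs), whose RNA the libraries can also hold. The labels do not name the promoter that drives CreERT2, nor whether the replicates were separate cultures, so the p-values speak only of how far libraries of a group differ, and that may be technical. No group received tamoxifen without the floxed alleles, so effects of losing Htatsf1 and effects of tamoxifen or of the active recombinase cannot be told apart.

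BCL2 proteins control the permeability of the outer mitochondrial membrane. BH3-only proteins sense stress and either occupy the anti-apoptotic proteins or activate the effectors directly, and activated BAX and BAK form the openings through which cytochrome c leaves the mitochondrion. NOXA binds MCL1 with preference, PUMA and BIM bind every main anti-apoptotic protein, and Pmaip1, Bbc3 and Bax are textbook transcriptional targets of p53. Mouse embryonic stem cells are known to lie close to the threshold of mitochondrial apoptosis and to depend on MCL1 and BCL-XL for survival.

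Levels are given as FPKM, fragments per kilobase of transcript scaled to the mapped fragments of the library, as the authors computed it for each gene. The confidence bounds in the files implied between 8.99 and 16.8 M fragments per library. Htatsf1 had 4.12 and 4.63 FPKM with tamoxifen and 22.7 FPKM in both ethanol libraries at 72 h, and 4.13 and 3.78 FPKM with tamoxifen, against 23.0 and 21.7 FPKM with ethanol, at 48 h. Of 15 markers of embryonic stem cells 14 were above 1 FPKM in at least 2 libraries, while Sox2 was listed at 0 in all 8. Changes were tested with limma on log2(FPKM + 1) in the 11867 genes with at least 1 FPKM in at least 2 libraries, and a gene was called at a Benjamini-Hochberg adjusted p of 0.05. Fold changes on this scale understate the change of low genes.

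Of the 10 members 9 passed this filter, and Bcl2 did not. Mcl1 and Bax were the most abundant members, with 166.95 to 232 FPKM and 136 to 185 FPKM over the 8 libraries, and their mean lay above that of 97.8% and 96.7% of the genes tested. Pmaip1 ran from 22.8 to 88.4 FPKM, Bbc3 from 16.8 to 63.6 FPKM and Bak1 from 24.6 to 36.5 FPKM. Bcl2l1 (15.4 to 28.7 FPKM), Bid (18.0 to 21.2 FPKM), Bcl2l11 (13.9 to 19.3 FPKM) and Bok (10.7 to 14.5 FPKM) were lower. Bcl2, the founder of the family, stayed between 0.575 and 0.865 FPKM, which rested on 16.6 to 59.7 implied fragments, while the 9 tested members rested on at least 152 each. The order of the group means of unscaled FPKM differed between members. Pmaip1, Bbc3 and Bcl2l1 were highest with tamoxifen at 72 h, whereas Mcl1, Bax and Bak1 were highest with tamoxifen at 48 h and lowest with ethanol at 72 h. For Bax the tamoxifen libraries of 48 h and 72 h overlapped. Neither Bax nor Mcl1 was called between these groups.

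**Figure D1:**
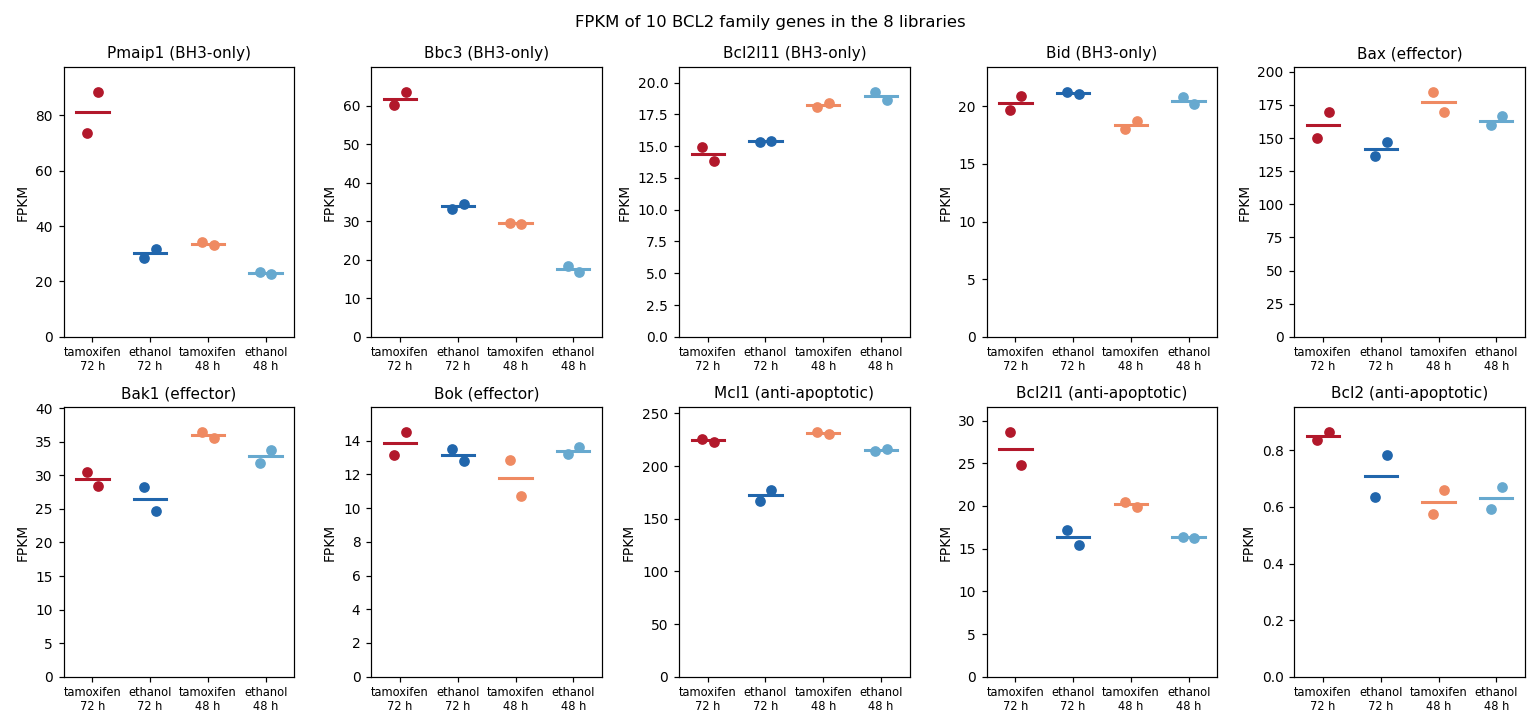
FPKM (y axis, from 0, its own scale in each panel) of the 10 members in the 2 libraries of each group (points) with their mean (line), for tamoxifen and ethanol at 72 h and at 48 h. Pmaip1 and Bbc3 stand highest with tamoxifen at 72 h, at 73.7 and 88.4 FPKM and at 60.2 and 63.6 FPKM.

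Genome positions of the members come from the files (mm9). Bbc3 spans chr7:16894932-16903683, Bcl2l1 chr2:152606404-152657418, Mcl1 chr3:95462643-95467101 and Bax chr7:52717065-52722268. The entries of Bcl2 and Bcl2l11 combine 2 and 3 transcripts and the others rest on 1, so splice forms such as those of Bcl2l1 and Mcl1, which can encode proteins of opposite function, were not separated. In the GENCODE M21 annotation, exons of Bak1 overlap Ggnbp1, those of Bid overlap Bcl2l13 and those of Bcl2 overlap D630008O14Rik on the opposite strand, and those of Bax overlap Gm45808 on the same strand. Whether counting used the strand is not given in the sources used here, so the values of Bak1, Bid and Bcl2 are uncertain to that extent. For Bax the strand could not separate it from Gm45808, so its value is uncertain either way.

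Windows of 250 bases before annotated starts were read from RefSeq (GRCm38.p6), which gave 14 windows for 9 of the 10 members. Pmaip1 had no window, so its promoter was not searched and the counts below do not cover it. They were searched on both strands for GGGCGG, the letters of a GC box, for CCAAT and TATAAA, and for the p53 consensus decamer, a pattern of 10 bases that reads alike on both strands. GGGCGG was found in 10 windows of 7 members, and in 32.7% of all 32851 windows. CCAAT was found in 3 windows of 2 members (33.8% of all windows) and TATAAA in 0 (12.4%). The p53 decamer was found in 1 window, that of Bax (7.13%), its first base 201 bases before the start. Shown are the most upstream of 3 windows of Bbc3, called at both times, and the windows of Mcl1 and Bax. Mcl1 was the most abundant anti-apoptotic member. In the limma fit over all libraries Bax was not called between tamoxifen and ethanol at either time. The authors' deposited table had Bax higher with tamoxifen at 72 h (log2 change 0.27, authors' adjusted p = 0.00118). At 48 h that deposited table did not call it (0.08, authors' adjusted p = 0.628). Capitals mark GGGCGG or its complement in Bbc3 and Mcl1 and the p53 decamer in Bax.
Bbc3, chr7:16309333-16309582, plus strand: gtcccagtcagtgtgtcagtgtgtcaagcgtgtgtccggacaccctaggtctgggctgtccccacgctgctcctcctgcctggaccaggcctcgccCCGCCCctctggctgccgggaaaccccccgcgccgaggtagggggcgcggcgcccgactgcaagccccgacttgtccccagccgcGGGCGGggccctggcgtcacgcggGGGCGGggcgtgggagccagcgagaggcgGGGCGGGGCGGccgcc
Mcl1, chr3:95658471-95658720, plus strand: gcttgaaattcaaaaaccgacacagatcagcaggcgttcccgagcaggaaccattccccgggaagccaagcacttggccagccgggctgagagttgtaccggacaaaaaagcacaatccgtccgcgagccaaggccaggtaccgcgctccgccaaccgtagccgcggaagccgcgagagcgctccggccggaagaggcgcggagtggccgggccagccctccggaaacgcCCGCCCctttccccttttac
Bax, chr7:45466899-45467148, minus strand: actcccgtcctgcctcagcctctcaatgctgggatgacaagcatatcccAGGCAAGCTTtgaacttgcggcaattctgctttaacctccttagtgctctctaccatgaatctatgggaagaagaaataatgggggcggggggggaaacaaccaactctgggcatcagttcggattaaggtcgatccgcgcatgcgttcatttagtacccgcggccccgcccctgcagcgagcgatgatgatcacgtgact
In the Bbc3 window the matches begin 154, 69, 45, 16 and 11 bases before the start, and the last pair share 1 base. Mcl1 has a single match, 20 bases before the start. None of the 3 windows of Bcl2l1, which was also called at both times, nor that of Bak1 held any of the 4 motifs. A match describes letters in these windows, and binding of any factor was not measured here.

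At 72 h, 4 of the 9 tested members rose with tamoxifen and 0 fell: the BH3-only genes Pmaip1 and Bbc3 and the anti-apoptotic genes Bcl2l1 and Mcl1. Of all genes tested 20.1% rose and 18.5% fell in this comparison. The median log2 change was 0.17 over the 9 members and -0.01 over all genes tested. None of the 3 effectors passed the test. Markers of fibroblasts, on which the stem cells were grown, moved the same way: 29 of 30 tested rose and 0 fell, and the 31 listed summed to 1826 and 1934 FPKM with tamoxifen and to 949.6 and 979 FPKM with ethanol. In such bulk libraries a shift in the share of cells of a type and a shift in the RNA per cell cannot be told apart, and the part of the fibroblasts in the changes of Pmaip1, Bbc3, Bcl2l1 and Mcl1 was not tested.

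Among the BH3-only genes, Pmaip1 had 73.7 and 88.4 FPKM with tamoxifen and 28.5 and 31.8 FPKM with ethanol at 72 h. The groups did not overlap, as in the upward direction for 35.2% of all genes tested, and the mean ratio was 2.69. On the log2 scale Pmaip1 rose by 1.40 ± 0.08 (SE, n = 2 per group, limma adjusted p = 2.79e-06), the rank 32 from the highest of the 11867 log2 changes. Bbc3 had 60.2 and 63.6 FPKM with tamoxifen, against 33.2 and 34.6 FPKM with ethanol. Its groups were also apart, and it rose by 0.85 ± 0.06 (limma adjusted p = 7.69e-06), a ratio of 1.83 and the rank 295. The other two BH3-only genes did not pass. Bcl2l11, whose protein BIM binds all main anti-apoptotic members, had 14.97 and 13.9 FPKM with tamoxifen, against 15.4 FPKM in both ethanol libraries (log2 change -0.09 ± 0.06, limma adjusted p = 0.299). Bid, which caspase-8 cleaves to link death receptors to mitochondria, had 19.7 and 20.9 FPKM with tamoxifen and 21.2 and 21.1 FPKM with ethanol (log2 change -0.06 ± 0.06, limma adjusted p = 0.479). For both genes the tamoxifen libraries lay below the ethanol libraries, as they did for 34.5% of all genes tested, and neither was called.

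Both tested anti-apoptotic genes rose at 72 h. Mcl1, whose product is short-lived and sequesters BIM, NOXA and BAK, had 226 and 223.1 FPKM with tamoxifen and 166.95 and 178 FPKM with ethanol. It rose by 0.38 ± 0.05 on the log2 scale (SE, n = 2 per group, limma adjusted p = 0.000306), a ratio of 1.30. Bcl2l1 had 28.7 and 24.8 FPKM with tamoxifen, against 17.2 and 15.4 FPKM with ethanol. It rose by 0.68 ± 0.08 (limma adjusted p = 0.000143), a ratio of 1.64. In both genes every tamoxifen library lay above every ethanol library, as for 35.2% of all genes tested. Bcl2 had 0.836 and 0.865 FPKM with tamoxifen, against 0.636 and 0.785 FPKM with ethanol. With no filter on low values its log2 change was 0.12 (limma adjusted p = 0.307 over 17215 genes), so no change of Bcl2 was detectable at this depth.

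The effectors had small positive differences at 72 h, none past the test. Bax had 149.8 and 169.8 FPKM with tamoxifen and 136 and 147 FPKM with ethanol (log2 change 0.17 ± 0.07, limma adjusted p = 0.0886). Bak1 had 30.5 and 28.5 FPKM with tamoxifen and 28.3 and 24.6 FPKM with ethanol (log2 change 0.15 ± 0.07, limma adjusted p = 0.125). In both the groups did not overlap, yet of all genes tested 35.2% did not overlap in the upward direction. Bok, an effector that acts apart from BAX and BAK, had 13.2 and 14.5 FPKM with tamoxifen, which overlapped the 12.8 and 13.5 FPKM with ethanol (log2 change 0.07 ± 0.09, limma adjusted p = 0.580). Bax was called without tamoxifen replicate 1 at 72 h (0.26, limma adjusted p = 0.0262), and Bak1 without ethanol replicate 1 at 72 h (0.25, limma adjusted p = 0.0393). The authors' deposited table of gene counts for 72 h had log2 changes of 0.27 for Bax (adjusted p = 0.00118) and 0.23 for Bak1 (adjusted p = 0.0151), so that 6 of the 10 members were higher there at an adjusted p of 0.05 and 0 were lower. The same deposited table had 16.5% of all its 17011 genes higher and 15.5% lower. By that deposited table Pmaip1 stood at 1.34, Bbc3 at 0.93, Bcl2l1 at 0.74 and Mcl1 at 0.32.

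At 48 h, 3 of the 9 tested members rose with tamoxifen and 0 fell: Bbc3, Pmaip1 and Bcl2l1. Of all genes tested 7.88% rose and 4.47% fell, so that 63.8% of the calls were higher, against 51.6% with median-ratio scaling. The median log2 change was 0.12 over the members and 0.02 over all genes tested. Of the 30 tested fibroblast markers 28 rose and 0 fell, and the list summed to 1425 and 1411 FPKM with tamoxifen and to 1012 and 976 FPKM with ethanol.

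Bbc3 had 29.5 and 29.4 FPKM with tamoxifen and 18.5 and 16.8 FPKM with ethanol at 48 h. It rose by 0.71 ± 0.06 (SE, n = 2 per group, limma adjusted p = 0.000177), a ratio of 1.67 and the rank 77 of all log2 changes from the highest. Pmaip1 had 34.2 and 33.1 FPKM with tamoxifen, against 23.5 and 22.8 FPKM with ethanol. It rose by 0.52 ± 0.08 (limma adjusted p = 0.00427), a ratio of 1.46, so that at 48 h the fitted change of Bbc3 was the larger and at 72 h that of Pmaip1. Bcl2l1 had 20.5 and 19.9 FPKM with tamoxifen and 16.3 FPKM in both ethanol libraries, a log2 change of 0.29 ± 0.08 (limma adjusted p = 0.0406). That call was lost without any 1 of the 4 libraries of 48 h, with adjusted p = 0.158 and 0.104 without tamoxifen replicates 1 and 2 and 0.153 and 0.168 without ethanol replicates 1 and 2. It was also lost with no filter on low values (limma adjusted p = 0.0851), with median-ratio scaling (0.0603), with quantile normalization (0.0905) and with no trend (0.0724).

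Mcl1 had 232 and 231 FPKM with tamoxifen, against 214 and 216 FPKM with ethanol at 48 h, and did not pass (log2 change 0.11 ± 0.05, limma adjusted p = 0.206). Bax (0.12 ± 0.07, limma adjusted p = 0.332) and Bak1 (0.13 ± 0.07, adjusted p = 0.286) again had positive differences. Bok (-0.18 ± 0.09, limma adjusted p = 0.223), Bid (-0.15 ± 0.06, adjusted p = 0.138) and Bcl2l11 (-0.05 ± 0.06, adjusted p = 0.641) had negative ones. Among the tested members, Bok alone had estimates of opposite sign at the 2 times, neither past the test. The authors' deposited table for 48 h called 3 of the 10 members higher and 0 lower, namely Bbc3 (0.58), Pmaip1 (0.49) and Bcl2l1 (0.28), when it called 6.62% of its 16729 genes higher and 5.31% lower.

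**Figure D2:**
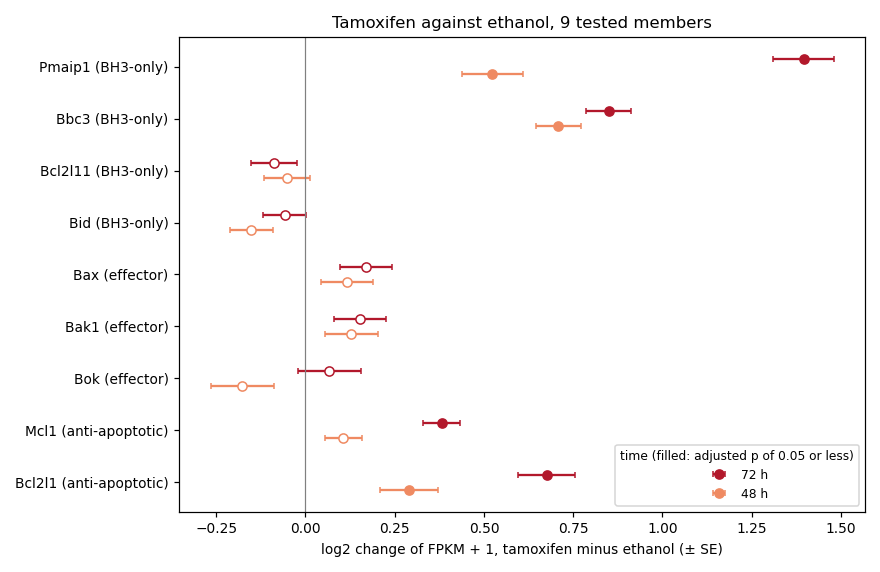
Log2 change of FPKM + 1 with tamoxifen relative to ethanol (x axis; bars are ± SE, 2 libraries per group) of the 9 tested members at 72 h and at 48 h, with filled points for an adjusted p of 0.05 or less. Pmaip1 lies at 1.40 for 72 h and 0.52 for 48 h, and Bbc3 at 0.85 and 0.71.

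Whether a member responded more strongly at 72 h than at 48 h was tested as the difference of its tamoxifen changes. Pmaip1 passed, with a difference of 0.87 ± 0.12 on the log2 scale (SE, n = 2 per group, limma adjusted p = 0.00852), and the other 8 tested members did not. Of all genes tested 2.00% passed upward and 1.45% downward, and Pmaip1 had the rank 36 from the highest. The adjusted p of Pmaip1 was 0.0528 with no filter on low values and 0.0506 without ethanol replicate 1 of 48 h, while the difference itself stayed at 0.87 and 0.85. Bcl2l1 (0.39 ± 0.11, limma adjusted p = 0.0943) and Mcl1 (0.27 ± 0.07, limma adjusted p = 0.0681) had positive differences that missed the threshold. Bbc3 had 0.14 ± 0.09 (limma adjusted p = 0.403). A changed response over time was therefore called for NOXA's gene, and for PUMA's gene it was not detectable with 2 libraries a group.

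The members also differed between 72 h and 48 h within each treatment, the ethanol controls included. The labels do not say whether both times were cultured or sequenced together, so time and any such batch cannot be told apart. The median log2 change of all genes tested was 0.11 in this direction under tamoxifen and 0.11 under ethanol, and median-ratio scaling moved it to 0.01 and to -0.0017. The share of calls that were higher went with it from 65.6% to 50.04% under tamoxifen and from 66.4% to 49.8% under ethanol. The change of each called member is therefore also given after subtraction of that median.

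Under tamoxifen, 3 of 9 tested members rose and 2 fell at 72 h relative to 48 h, when 37.5% of all genes rose and 19.6% fell. Pmaip1 rose by 1.24 ± 0.08 (SE, n = 2 per group, limma adjusted p = 3.62e-06) and by 1.12 relative to the median gene. Bbc3 rose by 1.04 ± 0.06 (limma adjusted p = 2.28e-06) and by 0.93 relative to the median gene. Bcl2l1 rose by 0.39 ± 0.08 (limma adjusted p = 0.00227) and by 0.27 relative to the median gene. Bcl2l11 fell by 0.32 (limma adjusted p = 0.00179) and Bak1 fell by 0.28 (adjusted p = 0.00785), and relative to the median gene they stood at -0.44 and -0.40. Mcl1 was at -0.04 and did not pass (limma adjusted p = 0.471), although median-ratio scaling called it lower (-0.16, adjusted p = 0.0181) and quantile normalization turned the sign (0.05). Bax, at -0.15 (limma adjusted p = 0.102), was called lower under median-ratio scaling (-0.27, adjusted p = 0.00763) and without tamoxifen replicate 2 of 72 h (-0.24, adjusted p = 0.0226). Bok, at 0.22 (limma adjusted p = 0.0563), was called higher without tamoxifen replicate 1 of 72 h (0.29, adjusted p = 0.0491) or of 48 h (0.34, adjusted p = 0.0139).

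Under ethanol, 2 of 9 tested members rose and 4 fell at 72 h relative to 48 h, when 38.0% of all genes rose and 19.2% fell. Bbc3 had 33.2 and 34.6 FPKM at 72 h and 18.5 and 16.8 FPKM at 48 h, a rise of 0.90 ± 0.06 (SE, n = 2 per group, limma adjusted p = 3.05e-06) or 0.79 relative to the median gene. In the ethanol controls alone, Bbc3 at 72 h (33.2 and 34.6 FPKM) thus lay above Bbc3 with tamoxifen at 48 h (29.5 and 29.4 FPKM). Pmaip1 rose by 0.37 ± 0.08 (limma adjusted p = 0.00409), or 0.26 relative to the median gene. Mcl1 fell by 0.32 (limma adjusted p = 0.000438), Bak1 by 0.31 (adjusted p = 0.00489) and Bcl2l11 by 0.28 (adjusted p = 0.00348), and relative to the median gene they stood at -0.43, -0.42 and -0.39. Bax fell by 0.20 (limma adjusted p = 0.0346), a call lost under 6 of the 17 other settings, and stood at -0.31 relative to the median gene. Bcl2l1 did not pass, at 17.2 and 15.4 FPKM at 72 h and 16.3 FPKM in both libraries of 48 h (log2 change -0.00053, limma adjusted p = 0.997). These 2 time comparisons share no library, and their difference is the same quantity as the difference of tamoxifen changes given above.

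**Figure D3:**
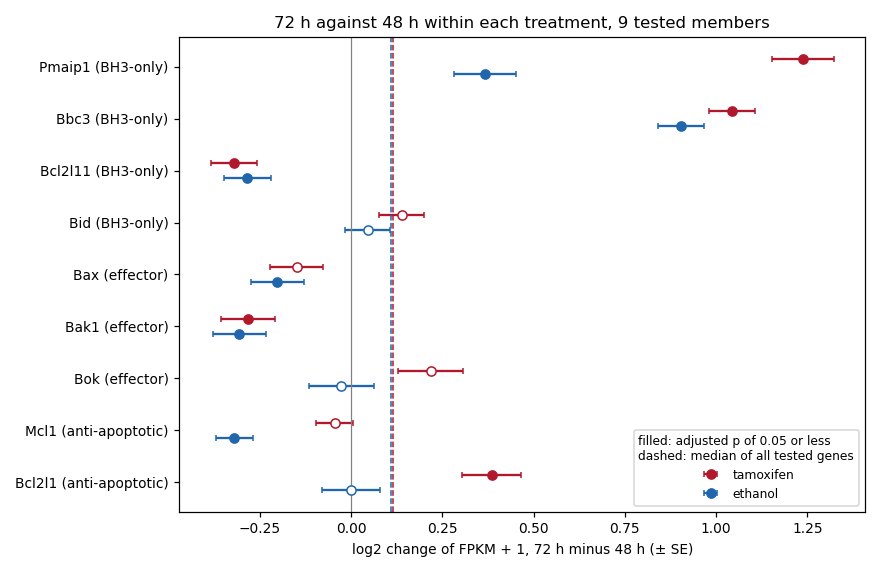
Log2 change of FPKM + 1 at 72 h relative to 48 h (x axis; bars are ± SE, 2 libraries per group) of the 9 tested members under tamoxifen and under ethanol, with filled points for an adjusted p of 0.05 or less and dashed lines for the median of all genes tested. Bbc3 rises under both (1.04 and 0.90), while Pmaip1 lies at 1.24 under tamoxifen and 0.37 under ethanol.

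The classes were then summed per library, as a description with no test. The BH3-only sum was 168 and 187 FPKM with tamoxifen and 98.3 and 102.9 FPKM with ethanol at 72 h, and 99.8 and 99.6 FPKM with tamoxifen and 82.0 and 78.4 FPKM with ethanol at 48 h. The anti-apoptotic sum was 255 and 249 FPKM with tamoxifen, against 185 and 194 FPKM with ethanol at 72 h, and 254 and 251 FPKM with tamoxifen, against 231 and 233 FPKM with ethanol at 48 h. The effector sum was 193 and 213 FPKM with tamoxifen, against 178 and 185 FPKM with ethanol at 72 h. At 48 h it was 234 and 215.6 FPKM with tamoxifen, against 205 and 213.8 FPKM with ethanol. The sum of each class was thus higher with tamoxifen at each time. Mcl1 made up 88.4% to 92.7% of the anti-apoptotic sum in the 8 libraries. The ratio of anti-apoptotic to pro-apoptotic FPKM was 0.664 ± 0.059 with tamoxifen and 0.671 ± 0.004 with ethanol at 72 h (SD, n = 2 each). At 48 h it was 0.778 ± 0.027 with tamoxifen and 0.801 ± 0.004 with ethanol (SD, n = 2 each). At 72 h the tamoxifen libraries (0.706 and 0.622) lay on either side of the ethanol libraries (0.668 and 0.674). At 48 h both tamoxifen libraries (0.759 and 0.797) lay below the ethanol libraries (0.804 and 0.798). The nearest, 0.797 and 0.798, were almost tied beside the tamoxifen SD of 0.027. The order at 48 h depended on Mcl1 and Bax. Without these genes both tamoxifen libraries (0.141 each) lay above the ethanol libraries (0.133 and 0.135).

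**Figure D4:**
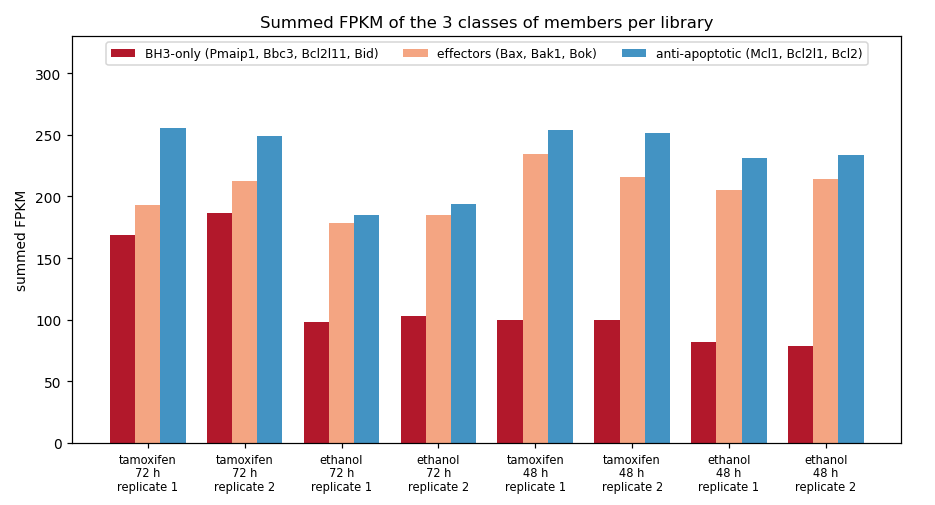
Summed FPKM (y axis, from 0) of the BH3-only, effector and anti-apoptotic members in each of the 8 libraries. The BH3-only sum is 168 and 187 FPKM with tamoxifen at 72 h and at most 102.9 FPKM in the other 6 libraries.

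Ratios of 3 pairs of members were also taken per library, the first that of Mcl1 to Pmaip1. It was 3.07 and 2.52 with tamoxifen and 5.87 and 5.59 with ethanol at 72 h, and 6.80 and 6.96 with tamoxifen and 9.12 and 9.50 with ethanol at 48 h. The 4 groups did not overlap, and the ratio was lower with tamoxifen at both times. The ratio of Bcl2l1 to Bbc3 was 0.477 and 0.389 with tamoxifen and 0.519 and 0.446 with ethanol at 72 h, where the groups overlapped. At 48 h it was 0.694 and 0.675 with tamoxifen and 0.883 and 0.966 with ethanol. The ratio of Mcl1 to Bax lay between 1.21 and 1.51 in all 8 libraries. At 72 h it was 1.51 and 1.31 with tamoxifen, above the 1.22 and 1.21 with ethanol. At 48 h the groups overlapped, at 1.26 and 1.36 with tamoxifen and 1.34 and 1.30 with ethanol. These are ratios of RNA levels, and the amounts of protein were not measured here.

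Genes around the family were counted from lists, to be read against the shares over all genes tested. The lists were chosen with earlier results of these data known, so their counts are a description only. With tamoxifen these were 20.1% higher and 18.5% lower at 72 h, and 7.88% higher and 4.47% lower at 48 h. Of 20 genes of the p53 circuit 19 were tested, and with tamoxifen 17 rose and 0 fell at 72 h and 15 rose and 0 fell at 48 h, with median log2 changes of 0.58 and 0.46. Mdm2, the ubiquitin ligase that p53 induces and that degrades p53, had 234 FPKM in both tamoxifen libraries and 55.7 and 60.1 FPKM with ethanol at 72 h (log2 change 2.00 ± 0.06, limma adjusted p = 7.74e-08). Cdkn1a, the cell cycle inhibitor p21, had 122 FPKM in both tamoxifen libraries, against 50.4 and 46.8 FPKM with ethanol (1.31 ± 0.06, limma adjusted p = 4.12e-07). Both were also called at 48 h, at 1.18 and 0.92. Under ethanol, 13 of the 19 rose and 2 fell at 72 h relative to 48 h, with a median of 0.40. In that comparison 38.0% of all genes tested rose and 19.2% fell. The members Pmaip1, Bbc3 and Bax, known targets of p53, are not in that list. Their tamoxifen changes at 72 h were 1.40, 0.85 and 0.17, and a part of p53 in them was not tested.

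Of 15 further BCL2 family genes 11 were tested, and 0 rose and 2 fell at 72 h, with a median log2 change of -0.20. Over all genes tested, 20.1% rose and 18.5% fell. Bnip3, a mitophagy receptor that hypoxia induces, had 18.4 and 21.4 FPKM with tamoxifen and 47.5 and 43.1 FPKM with ethanol (-1.15 ± 0.09, limma adjusted p = 1.37e-05), and was lower at 48 h too (-0.54, adjusted p = 0.00610), a call lost without ethanol replicate 2 of 48 h (-0.52, adjusted p = 0.0577). Its relative Bnip3l fell by 0.36 at 72 h (limma adjusted p = 0.00483) and had -0.09 at 48 h (adjusted p = 0.496). The other 9, among them the anti-apoptotic Bcl2l2 and the BH3-only genes Bad, Bmf, Bik and Hrk, were not called at 72 h.

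Of the 24 genes that act at or after the mitochondrial step, all tested, 2 rose and 5 fell at 72 h, with a median of -0.09. Dffb, the nuclease that fragments DNA once its inhibitor is cleaved, had 17.2 and 17.8 FPKM with tamoxifen and 4.97 and 5.97 FPKM with ethanol (1.52 ± 0.11, limma adjusted p = 5.16e-06). Apaf1, the scaffold on which cytochrome c activates caspase-9, rose by 0.30 (limma adjusted p = 0.0111), a call lost without tamoxifen replicate 1 (0.0787) or ethanol replicate 1 (0.0714) of 72 h. Dnm1l, the GTPase of mitochondrial fission, fell by 0.47 (limma adjusted p = 0.000294), and Birc2, an inhibitor of apoptosis protein, fell by 0.35 (adjusted p = 0.00543). The other 17 did not pass, and of all genes tested 20.1% rose and 18.5% fell.

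Of 14 death receptor genes 12 were tested, and 5 rose and 1 fell at 72 h, with a median of 0.17. Over all genes tested, 20.1% rose and 18.5% fell. Ripk3, the kinase of necroptosis, had 6.42 and 6.01 FPKM with tamoxifen and 3.86 and 3.43 FPKM with ethanol (0.64 ± 0.09, limma adjusted p = 0.000565). Fas, the receptor and a known p53 target, had 2.36 and 2.06 FPKM with tamoxifen, against 0.596 and 0.634 FPKM with ethanol (0.99 ± 0.17, limma adjusted p = 0.00127). Cradd, an adaptor of caspase-2, fell by 0.35 (limma adjusted p = 0.0390), a call lost under 6 of the 17 other settings. These were no filter on low values (0.0897), no trend (0.0512), only the 4 libraries of 72 h (0.0530), and the fits without tamoxifen replicate 1 (0.135), tamoxifen replicate 2 (0.0902) or ethanol replicate 2 of 72 h (0.303), the last with a change of -0.16. Of 16 regulators of BCL2 genes and proteins 3 rose and 1 fell at 72 h, with a median of 0.05, beside the same shares over all genes. Ddit3 (CHOP), a stress factor that induces Bcl2l11 and Bbc3 in other cells, had 29.9 and 34.5 FPKM with tamoxifen, against 13.2 and 15.4 FPKM with ethanol (1.12 ± 0.11, limma adjusted p = 5.74e-05). Foxo3, which can activate Bcl2l11 and Bbc3, rose by 0.90 (limma adjusted p = 2.61e-05), and Atf4, the factor upstream of Ddit3, fell by 0.29 (adjusted p = 0.0130), a call lost without tamoxifen replicate 1 (0.0804) or ethanol replicate 2 (0.0769) of 72 h.

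At 48 h calls in the first 3 of these 4 lists were fewer than at 72 h, as over all genes tested, and in the regulators there were 4 at each time. The further BCL2 family genes had 0 higher and 1 lower, and the mitochondrial genes 2 higher and 2 lower. The death receptor genes had 2 higher and 0 lower, and the regulators 2 higher and 2 lower. Over all genes tested, 7.88% were higher and 4.47% lower at 48 h. Of the mitochondrial genes called at 48 h, Apaf1 lost its call under 5 of the 17 other settings, Birc2 under 7 and Dffb under 1, and of the regulators Atf4 lost its call under 3. Ddit3 had 9.22 and 7.38 FPKM with tamoxifen and 9.41 and 8.32 FPKM with ethanol at 48 h (limma adjusted p = 0.654).

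The fibroblast markers had a median log2 change of 1.06 with tamoxifen at 72 h and of 0.54 at 48 h. None of the 31 was listed at 0 in any library, and Fap stayed under 1 FPKM. Col1a1, a fibrillar collagen, had 121 and 125 FPKM with tamoxifen, against 51.8 and 54.8 FPKM with ethanol at 72 h (1.19 ± 0.05, limma adjusted p = 5.76e-07), and Acta2, a smooth muscle actin, rose by 1.50 (adjusted p = 3.60e-07). Over all genes tested, 20.1% rose and 18.5% fell with tamoxifen at 72 h, and 7.88% rose and 4.47% fell at 48 h. Of the 14 tested stem cell markers 0 rose and 8 fell at 72 h (median -0.32) and 0 rose and 1 fell at 48 h (median -0.02). The 1 at 48 h was Tdgf1 (-0.21, limma adjusted p = 0.0464), a call lost under 10 of the 17 other settings, among them the replicate block (0.0706), quantile normalization (0.214) and the fits without any 1 of the 4 libraries of 48 h (0.0745 to 0.269). Klf2 had 48.1 FPKM in both tamoxifen libraries and 72.1 and 70.5 FPKM with ethanol at 72 h (-0.56 ± 0.06, limma adjusted p = 7.22e-05), and Tdgf1 fell by 0.47 at 72 h (adjusted p = 0.000241). The summed FPKM of the stem cell markers was 3600 and 4046 with tamoxifen and 4672 and 4519 with ethanol at 72 h, and 3468 and 3371 with tamoxifen and 3595 and 3511 with ethanol at 48 h. Between the times under ethanol, 4 of the 30 tested fibroblast markers rose and 10 fell at 72 h. Under ethanol the list summed to 949.6 and 979 FPKM at 72 h and to 1012 and 976 FPKM at 48 h. Under tamoxifen, 23 of the 30 rose and 2 fell at 72 h relative to 48 h (median 0.44). The difference of tamoxifen changes was called higher for 17 of the 30 and lower for 0 (median 0.48). Over all genes tested, 38.0% rose and 19.2% fell with time under ethanol, and 37.5% rose and 19.6% fell under tamoxifen. For the difference, 2.00% passed upward and 1.45% downward. The part of the fibroblasts in the time changes of the members was not tested.

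As a description over the 8 libraries, which share their groups, the other tested genes closest in pattern to each member called at 72 h were listed by Pearson's r of log2(FPKM + 1). For Pmaip1 these were Ctsb (r = 0.994), a lysosomal protease, and Ccdc80 (0.993). For Bbc3 they were Serpinh1 (0.998), a collagen chaperone, and Dcxr (0.998). For Bcl2l1 they were Rapgef1 (0.993) and Sesn2 (0.992), and for Mcl1 Pgrmc1 (0.996) and Dusp6 (0.994), a phosphatase of ERK. Dcxr averaged 30.0 FPKM with tamoxifen and 13.8 FPKM with ethanol at 72 h, and 11.9 FPKM with tamoxifen and 6.03 FPKM with ethanol at 48 h, the order of groups that Bbc3 had. Dusp6 averaged 44.1 FPKM with tamoxifen and 28.9 FPKM with ethanol at 72 h, and 46.3 FPKM with tamoxifen and 41.1 FPKM with ethanol at 48 h, the order that Mcl1 had.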

How the data were processed

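Per library the authors deposited 1 table of FPKM per gene, with confidence bounds and a status column. The submitters' processing notes name HTSeq, DESeq, Cufflinks 1.3.0, TopHat 1.4.1 and BWA 0.6.1 with genome build mm9, and give no roles. For each time the authors also deposited a table of comparisons. Per the file headers its group means are a signal, namely counts scaled by size factors and pooled over a group. Its fold change and log2 fold change, as deposited by the authors, are ratios of ethanol over tamoxifen, and the sign was turned here. The p-values in it, raw and adjusted, were deposited by the authors and not recomputed.

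Of 20789 entries per table, 209 had a status other than OK in some library and were dropped, and the entry of highest mean FPKM stood for each gene. FPKM was used unscaled as log2(FPKM + 1). One limma fit (R 4.3.3, limma 3.58.1) over the 8 libraries, with a mean per group and a trended eBayes step, gave 5 contrasts, with two-sided tests and Benjamini-Hochberg adjustment over the 11867 genes tested in each. The script was tested on simulated data. A bound was taken as 2 SD of a Poisson count to estimate fragments per value, which covers counting error only, with a median of 260 to 531 fragments per tested gene. Within groups the squared difference between libraries was 1.58 to 2.48 times the counting variance, and the correlation was 0.995 to 0.997. Starts count from 0 in the files, so 1 was added.

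The members and lists were chosen with earlier results of these data known. Named genes were the 10 members, Htatsf1, from each list the 2 called genes of smallest p in each direction at 72 h, and for each member called at 72 h the 2 genes of highest correlation. Genes named only as list members carry no values, and Sox2, Fap and the overlapping genes were named after their values or positions were seen. Alternatives were other pseudocounts, filters and scalings, no trend, only the 4 libraries of a comparison, a replicate block and leaving out each library.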

Additional observations from a re-analysis of the deposited data

Results flagged for a closer look

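The tamoxifen change of Pmaip1 differed between the times, by the test of the difference itself. It was 1.40 at 72 h and 0.52 at 48 h on the log2 scale, a difference of 0.87 ± 0.12 (SE, n = 2 per group, limma adjusted p = 0.00852). Fibroblast markers summed to 1826 and 1934 FPKM with tamoxifen and 949.6 and 979 FPKM with ethanol at 72 h, and to 1425 and 1411 FPKM with tamoxifen and 1012 and 976 FPKM with ethanol at 48 h, and their part in this difference was not tested. Groups of 2 libraries are too small for a search for outlying samples.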

How the results depend on the processing

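The calls of Pmaip1, Bbc3, Bcl2l1 and Mcl1 at 72 h and of Pmaip1 and Bbc3 at 48 h held under all 17 other settings run, those that leave out a library included. Over all settings and contrasts the members gave 723 values with the same direction and call, 16 that lost the call, 7 that gained it and 14 of opposite sign, none of them past the test. Genes called at 48 h were 1466, 958 with no filter and 440 to 1583 without 1 library. Genes called for the difference between times were 409, 44 with no filter, 226 with no trend, 266 with the replicate block and 50 to 243 without 1 library, and members called were 1, 0 with no filter and 0 to 1 without 1 library. Same-numbered libraries had correlated deviations of -0.28 to 0.15 between groups. With 2 libraries a group, these values cannot settle whether the numbers pair the libraries. The replicate block changed no member's call. The ratio of anti-apoptotic to pro-apoptotic FPKM was smaller in every group without Mcl1 and Bax, its most abundant members. It was then 0.125 with tamoxifen and 0.122 with ethanol at 72 h, where the libraries overlapped (0.139 and 0.111 against 0.128 and 0.116). At 48 h it was 0.141 with tamoxifen and 0.134 with ethanol. The tamoxifen libraries at 48 h then lay above the ethanol libraries, the reverse of their order with all members, where the nearest libraries were almost tied. Signs turned for uncalled values: the difference of Bax under quantile normalization (-0.011), the ethanol time change of Bid under median-ratio scaling (-0.078) and quantile normalization (-0.045), and the tamoxifen time change of Mcl1 under quantile normalization (0.053). Without 1 library the differences ran from -0.037 to 0.14 for Bax, -0.072 to 0.12 for Bak1 and -0.089 to 0.015 for Bcl2l11, and the ethanol time changes from -0.075 to 0.074 for Bcl2l1 and -0.061 to 0.0093 for Bok. Without 1 library the changes at 48 h ran from -0.23 to 0.053 for Ddit3 and -0.084 to 0.066 for Klf2. The cause was not tested. With 2 libraries a group, a missed threshold does not show that a member is unchanged.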
